A study of Mus musculus with 72 samples.

Results

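The 6 genes described here, Id1, Id2, Id3, Id4, Smad6 and Smad7, are transcribed in response to bone morphogenetic protein (BMP) signalling, and they were chosen by name as known targets of that pathway, at a time when earlier results of these data were known. They are 6 of the 22556 genes in the count files. Their RNA was followed from mouse embryonic stem (ES) cells through neural induction to day 52 of culture as neural precursor cells (NPCs).

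BMP ligands bind pairs of serine/threonine kinase receptors, which phosphorylate SMAD1, SMAD5 and SMAD9. These join SMAD4, enter the nucleus and activate target genes, the Id genes and the inhibitory Smads among the best known. ID proteins are helix-loop-helix proteins without a DNA-binding region that hold E proteins away from DNA, and in mouse ES cells BMP acts with LIF through them to block neural differentiation. SMAD6 and SMAD7 feed back on the pathway, SMAD6 mainly on its BMP branch and SMAD7 on the BMP and TGF-beta branches alike.

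Chromatin-associated RNA sequencing (ChrRNA-seq) measures RNA bound to chromatin, which is rich in unspliced, newly made transcripts. The study asked how SmcHD1, a chromosomal protein, acts in X inactivation, and it used 2 female 129S x Cast hybrid ES lines in which a TetOn promoter replaced the Xist promoter on the 129S allele (iXist-ChrX-Dom) or on the Cast allele (iXist-ChrX-Cast). Each line was compared with SmcHD1 knockout (KO) derivatives made by CRISPR, clone A3 of iXist-ChrX-Dom and clones D5 and G6 of iXist-ChrX-Cast, so each KO line was 1 clone. ES libraries were made of the KO clones before doxycycline (2 of A3, 2 of D5 and 1 of G6), from cells kept in serum and LIF on feeder fibroblasts that were removed by pre-plating.

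All differentiating cells, wild-type (WT) and KO, were in N2B27 medium with doxycycline throughout, with EGF and FGF added for the replated late cultures. Days 2, 3, 5 and 7 had 2 replicates of each clone, or 3 for iXist-ChrX-Cast WT on days 3, 5 and 7. Days 15, 21 and 35, and day 52 for iXist-ChrX-Dom WT and A3, had 1 replicate each. The days were grouped as ES, days 2-3, days 5-7 and late (day 15 onwards), and the WT cells of the lines are called Dom WT and Cast WT. The study describes the early days as repeated time courses and the late ones as individual samples, while the labels say nothing of separate cultures. The p-values measure the spread between these samples, part of which may be technical.

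The 72 libraries, which made 65 replicates once repeat runs were summed, held 9344054 to 31216487 fragments counted in genes. The summed level of 6 ES markers fell from a median of 1150 RPM (fragments per 1000000 counted in genes) in 5 ES replicates to 25.4 RPM in 17 late ones. The late cells are labelled NPC, and 9 neural precursor markers summed to a median of 199 RPM in ES cells, 211 RPM on days 2-3, 261 RPM on days 5-7 and 472 RPM late (194 to 1005). Of these Vim reached 732 RPM and Fabp7 43.3 RPM, Olig2 stayed under 1 RPM in every replicate, and Sox1 was listed at 0 in every one, an uncertain value since Gm5607 overlaps it on the same strand. A list of 6 fibroblast genes, meant for feeder cells, summed to 13.6 to 144 RPM on days 5-7 and to 242 to 16140 RPM in the late replicates. Mesoderm and endoderm markers summed to a median of 36.2 RPM on days 2-3 and 125 RPM on days 5-7, and the epidermal list went from a median of 21.5 to 142 RPM over the same days. What part these other cells had in the results below was not tested, and in bulk RNA a change in the number of cells of a type and in the RNA per cell cannot be told apart. The Dom WT libraries were of 2 kinds, since the median gene past 140 Mb of chromosome 6 drew 6.07 to 17.8% of its allelic fragments from the Cast allele in 7 of them (replicate 2 of days 2 to 7 and days 21, 35 and 52) and 47.8 to 51.6% in the other 5. In every D5 replicate that median was 62.3 to 65.9%, beside 44.8 to 51.6% in A3, Cast WT and G6. D5 is part of all pooled fits with G6, and what this did to them was not tested. None of the 6 genes lies on chromosome 6, and results that rest on Dom WT are given below with each kind where a fit could be had.

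**Figure D1:**
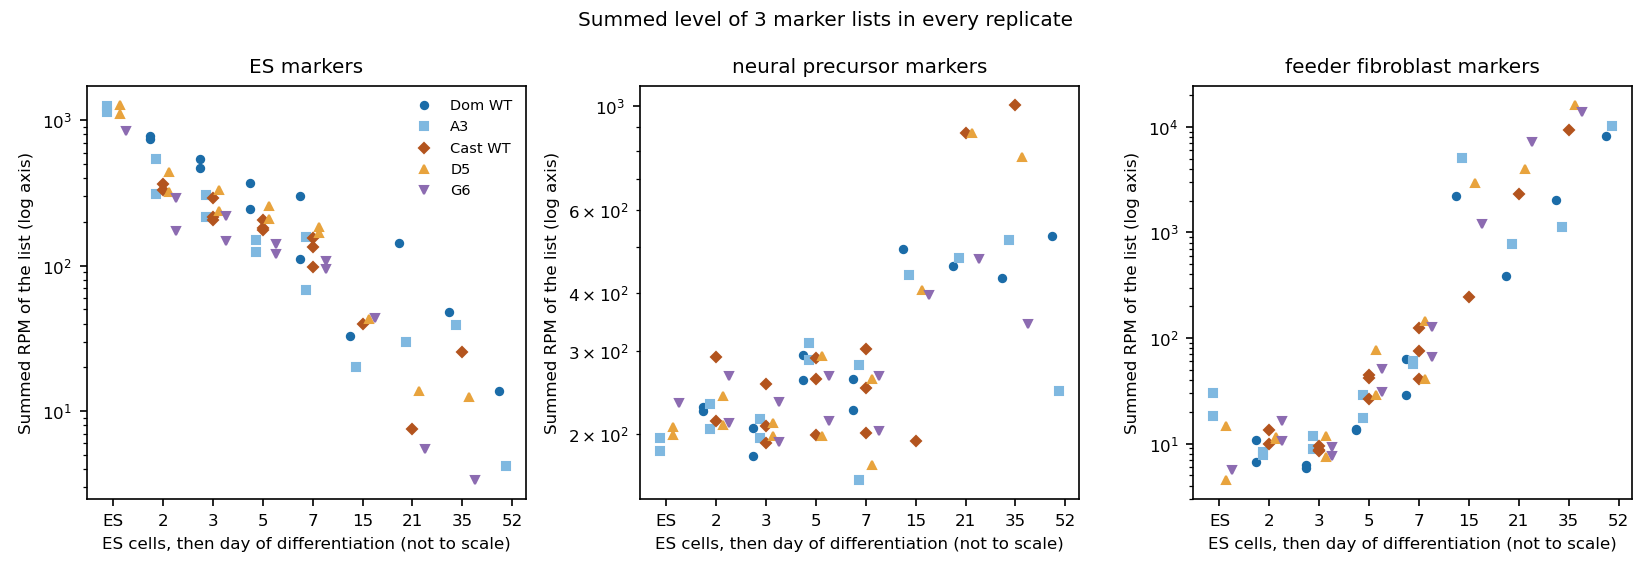
Summed RPM (log axis) of ES, neural precursor and feeder fibroblast marker lists in every replicate, by day and clone. The ES list falls from a median of 1150 to 25.4 RPM, and the fibroblast list reaches 242 to 16140 RPM in the late replicates.

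Id1 lies on chromosome 2 (152736250-152737410, plus strand, mm10), Id2 on chromosome 12 (25093798-25096092, minus), Id3 on chromosome 4 (136143821-136145392, plus) and Id4 on chromosome 13 (48261426-48264036, plus). Smad6 spans chromosome 9 from 63953075 to 64022059 on the minus strand. Fragments were counted over whole transcripts, introns included, so the counted length was 1161 to 2611 bases for the 4 Id genes against 68985 for Smad6 and 28571 for Smad7. No other gene overlaps them on the same strand. A330033J07Rik overlaps Id4 on the opposite strand, which strand-specific counting keeps apart.

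The 250 bases before the start site were read from RefSeq (GRCm38.p6) for Id2, Id3, Id4 and Smad6, to set side by side the promoters of genes that fell after ES cells or rose later. Id1 and Smad7 are named only. Capitals mark the letters GGCGCC and GGAGCC, which are bound by SMAD1 and SMAD5 complexes in known Id enhancers, and CAGAC, the SMAD3 and SMAD4 box, on either strand. The windows are chr12:25096093-25096342 (minus strand) for Id2, chr4:136143572-136143821 (plus) for Id3, chr13:48260866-48261115 (plus) for Id4, whose RefSeq start lies before the counted one, and chr9:64022060-64022309 (minus) for Smad6.
Id2: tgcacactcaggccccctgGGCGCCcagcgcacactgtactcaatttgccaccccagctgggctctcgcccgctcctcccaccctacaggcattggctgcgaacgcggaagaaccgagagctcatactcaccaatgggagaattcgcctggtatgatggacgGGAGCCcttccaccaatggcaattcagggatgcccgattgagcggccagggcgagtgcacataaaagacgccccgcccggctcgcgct
Id3: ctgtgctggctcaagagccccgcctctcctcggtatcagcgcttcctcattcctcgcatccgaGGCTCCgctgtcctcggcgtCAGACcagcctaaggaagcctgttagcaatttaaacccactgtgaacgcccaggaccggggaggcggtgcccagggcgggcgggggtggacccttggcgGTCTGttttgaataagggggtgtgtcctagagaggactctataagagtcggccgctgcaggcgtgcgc
Id4: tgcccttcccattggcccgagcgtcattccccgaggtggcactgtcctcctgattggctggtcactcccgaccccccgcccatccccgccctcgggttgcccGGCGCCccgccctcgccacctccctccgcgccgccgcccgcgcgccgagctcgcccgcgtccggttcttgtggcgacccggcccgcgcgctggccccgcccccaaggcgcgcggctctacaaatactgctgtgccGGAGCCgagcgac
Smad6: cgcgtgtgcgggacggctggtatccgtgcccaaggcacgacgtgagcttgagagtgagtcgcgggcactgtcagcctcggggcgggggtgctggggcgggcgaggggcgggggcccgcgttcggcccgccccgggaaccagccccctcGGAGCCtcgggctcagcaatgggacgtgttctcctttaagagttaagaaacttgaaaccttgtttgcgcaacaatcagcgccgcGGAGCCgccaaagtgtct

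GGCGCC stood 231 to 226 bases before the start of Id2 and 148 to 143 bases before that of Id4, and 9.59% of 32851 promoters of this length held it on either strand. GGAGCC was in each of the 4 windows, at 88 to 83 bases in Id2, 187 to 182 in Id3, 13 to 8 in Id4 and, in Smad6, at both 102 to 97 and 18 to 13. It was in 25.97% of the promoters. CAGAC was found in the Id3 window alone, at 167 to 163 and 68 to 64, and in 42.2% of the promoters. CCAAT, searched as a letter string of general promoters (33.8% of them), was found 3 times in Id2 and 2 times in Id4 and is left in lower case. The windows were 62.8% (Id2 and Id3), 66.8% (Smad6) and 75.6% (Id4) G and C, against a median promoter at 52.4%.

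Per kilobase of counted length, the genes were transcribed at a like order in ES cells, Smad6 apart. In A3 ES cells Id1 was at 4.27 ± 0.61 RPKM, Id2 at 3.58 ± 0.81, Id3 at 3.504 ± 0.051, Id4 at 1.98 ± 0.68, Smad6 at 0.116 ± 0.0015 and Smad7 at 3.61 ± 0.0034 (SD, n = 2 each). By the late days Smad6 stood at 0.461 ± 0.123 RPKM and Smad7 at 0.920 ± 0.531 in A3 (n = 4), and Id3 led with 5.82 ± 3.66. All levels below are RPM and compare a gene with itself only.

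The ES comparison asked how BMP output changed on neural induction. In clone A3, 5 of the 6 genes fell between ES cells and days 2-3 and none rose (edgeR quasi-likelihood test, Benjamini-Hochberg adjusted p under 0.05 over all genes), where 19% of the genes tested fell and 16% rose. In D5 and G6, fitted together with clone as a term, again 5 fell and none rose, against 19.2% and 18.3% of genes. The median log2 fold change of the 6 was -2.36 in A3 and -1.69 in D5 and G6, beside medians of 0.01 and 0.04 over all genes. ES libraries exist here for KO clones only, and the change of medium, the loss of LIF and the start of doxycycline came with differentiation and cannot be told apart.

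Id1 fell the furthest of the Id genes. It was at 5.46 and 4.45 RPM in the ES replicates of A3, at 0.652 and 0.0708 RPM on day 2 and at 0.758 and 0.249 RPM on day 3, an 11.8-fold fall (log2 fold change -3.56, SE 0.58, edgeR adjusted p = 0.00188). In the Cast-line clones it was at 2.68 and 1.97 RPM in D5 ES cells and 4.43 RPM in G6 ES cells, and at 0.127 to 0.700 RPM (D5) and 0.273 to 0.833 RPM (G6) on days 2-3 (log2 fold change -3.03, SE 0.41, edgeR adjusted p = 0.000123). Every ES replicate lay above every replicate of days 2-3 in each clone. The low level rests on 2 to 20 fragments per replicate, so the depth of the fall is less certain than its direction.

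Id2, which is expressed in many tissues besides those that respond to BMP, was at 9.52 and 6.90 RPM in A3 ES cells and at 1.83, 1.24, 1.60 and 1.57 RPM on days 2-3 (log2 fold change -2.39, SE 0.26, edgeR adjusted p = 0.000253). In D5 it went from 12.2 and 6.06 RPM to 2.37, 4.35, 2.26 and 2.82 RPM, and in G6 from 19.1 RPM to 2.51, 5.64, 2.75 and 3.25 RPM (log2 fold change -2.18, SE 0.28, edgeR adjusted p = 8.51e-05). The ES values did not overlap with days 2-3 in any clone, and G6 began highest. Id4, best known from the developing nervous system, behaved likewise at a lower level, from 6.42 and 3.89 RPM to 0.826, 0.531, 0.579 and 0.498 RPM in A3 (log2 fold change -3.07, SE 0.35, edgeR adjusted p = 0.000312). In D5 and G6 the ES replicates of Id4 were at 4.07, 3.71 and 4.08 RPM and those of days 2-3 at 0.264 to 1.23 RPM (log2 fold change -2.09, SE 0.31, edgeR adjusted p = 0.000259).

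By the main edgeR fit Id3 passed in A3 and, narrowly, not in D5 and G6. In A3 it dropped from 5.57 and 5.45 RPM to 1.09, 0.460, 1.34 and 1.53 RPM (log2 fold change -2.34, SE 0.39, edgeR adjusted p = 0.00199). In D5 it was at 3.65 and 4.54 RPM in ES cells and at 1.78, 4.59, 1.25 and 3.16 RPM on days 2-3, and in G6 at 3.58 RPM and then at 1.54, 3.57, 1.36 and 1.54 RPM. Replicate 2 of day 2 was close to the ES level in each of these clones, and the log2 fold change of -0.89 (SE 0.34) did not pass (edgeR adjusted p = 0.0546). It passed without that replicate of D5 (-1.07, edgeR adjusted p = 0.0220) or of G6 (-0.98, edgeR adjusted p = 0.0298). Among 9 other settings it passed in 3, namely RLE size factors, DESeq2 and the replicate block. Whether the clones of the lines differed in this change was not tested.

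Of the inhibitory Smads, Smad7, which lies on the plus strand of chromosome 18, fell clearly and Smad6 little. Smad7 was at 103 and 103 RPM in A3 ES cells and at 50.3, 41.3, 44.4 and 30.02 RPM on days 2-3 (2.50-fold lower, log2 fold change -1.32, SE 0.17, edgeR adjusted p = 0.000671). It went from 106 and 102 RPM to 44.3 to 67.0 RPM in D5 and from 90.2 RPM to 30.3 to 48.0 RPM in G6 (log2 fold change -1.28, SE 0.13, edgeR adjusted p = 2.17e-05). The groups were far apart in each clone. Smad6 was at 7.92 and 8.07 RPM in A3 ES cells and at 7.26, 5.24, 4.95 and 5.02 RPM on days 2-3, which did not pass (log2 fold change -0.52, SE 0.23, edgeR adjusted p = 0.0985). In D5 it was at 8.47 and 7.57 RPM and then at 3.23 to 7.27 RPM, in G6 at 9.81 RPM and then at 5.53 to 8.18 RPM, and there it just passed (log2 fold change -0.65, SE 0.24, edgeR adjusted p = 0.0453). That call held in 4 of 11 refits that left out a replicate and in 3 of 9 other settings.

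**Figure D2:**
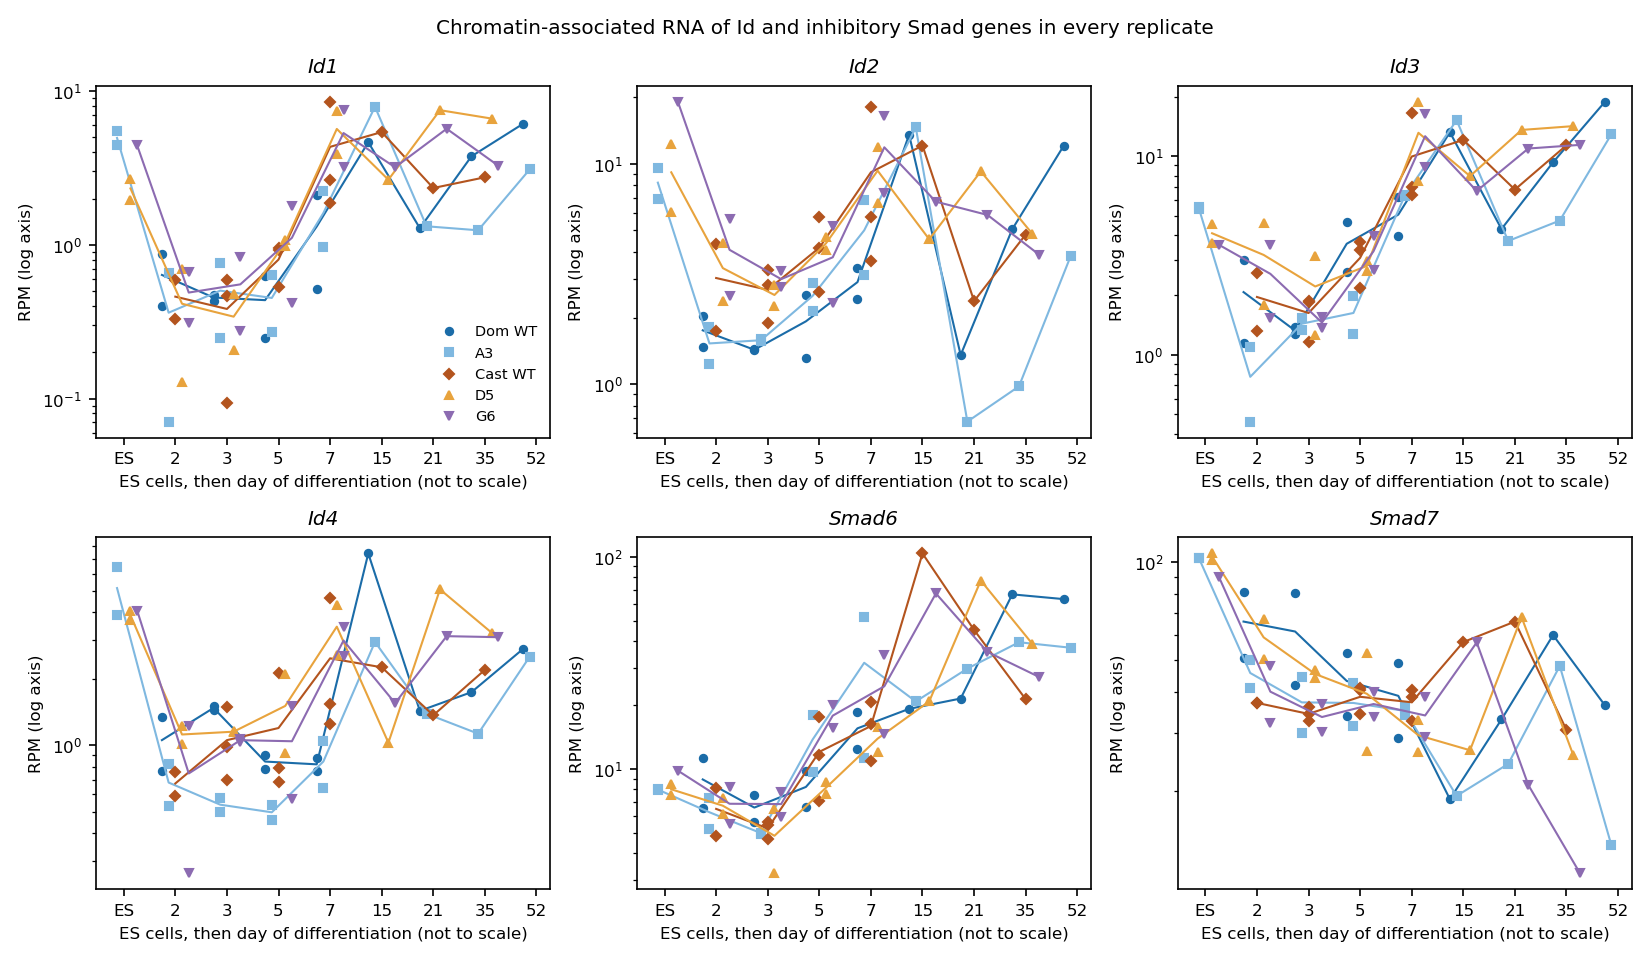
RPM (log axis) of each gene in every replicate, by day and clone, with lines through the means of a clone. Id1, Id2, Id4 and Smad7 drop after ES cells in each KO clone and Id3 most in A3, and the Id genes and Smad6 are higher on day 7 than on days 2 and 3 in most clones.

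Between days 2-3 and days 5-7, 1 to 5 of the 6 genes rose, depending on the clone. The number of the 6 genes that rose was 1 in Dom WT (12.1% of all genes rose and 8.99% fell), 4 in Cast WT (23.5% and 22.9%), 3 in A3 (16.3% and 13.4%) and 5 in D5 and G6 (27.9% and 28.6%). None of the 6 fell in these 4 fits. These fits share the days 2-3 libraries with those against ES cells, so a low value on days 2-3 enters both. The median log2 fold change of the 6 was 0.65 in Dom WT, 1.39 in Cast WT, 1.43 in A3 and 1.36 in D5 and G6, beside 0.01, 0.01, 0.03 and -0.01 over all genes.

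Id1 was at 0.330 and 0.589 RPM on day 2 and 0.462, 0.0930 and 0.592 RPM on day 3 in Cast WT, and then between 0.532 and 8.49 RPM (median 1.41) in 6 replicates of days 5-7 (log2 fold change 2.75, SE 0.73, edgeR adjusted p = 0.00835). Without replicate 2 of day 7, the highest, the log2 fold change was 1.86 (edgeR adjusted p = 0.0113). In D5 it was at 1.08 and 0.986 RPM on day 5 and 3.89 and 7.45 RPM on day 7, and in G6 at 1.80 and 0.420 RPM and then 7.47 and 3.19 RPM (log2 fold change 3.04, SE 0.56, edgeR adjusted p = 0.000206). In these 3 clones the day 7 replicates were the high ones, and the ranges overlapped with days 2-3 in Cast WT and G6 through day 5. Id1 of Dom WT was at 0.401, 0.872, 0.433 and 0.475 RPM on days 2-3, 0.625 and 0.248 RPM on day 5 and 2.11 and 0.518 RPM on day 7. Id1 of A3 was at 0.269 and 0.633 RPM on day 5 and 0.973 and 2.25 RPM on day 7. Neither clone of iXist-ChrX-Dom passed for Id1.

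Id3 rose in all 4 fits, and among the 6 genes it was alone in that. In Dom WT it was at 2.99, 1.14, 1.26 and 1.38 RPM on days 2-3 and at 4.65, 2.60, 6.22 and 3.95 RPM on days 5-7 (log2 fold change 1.38, SE 0.39, edgeR adjusted p = 0.0335). The ranges overlapped through replicate 1 of day 2. In Cast WT it went from 1.16 to 2.59 RPM over 5 replicates to 2.16 to 16.5 RPM (median 5.03) over 6 (log2 fold change 2.03, SE 0.48, edgeR adjusted p = 0.00449). In A3 it was at 1.28 and 1.97 RPM on day 5 and at 6.33 and 6.42 RPM on day 7, above the 0.460 to 1.53 RPM of days 2-3 on the later day (log2 fold change 2.01, SE 0.59, edgeR adjusted p = 0.0291), a call that was lost in 5 of 8 refits that left out a replicate, with values of 1.64 to 2.11. In D5 the day 5 and day 7 values were 2.98, 2.63, 7.49 and 18.8 RPM, and in G6 3.97, 2.67, 16.4 and 8.87 RPM (log2 fold change 1.92, SE 0.44, edgeR adjusted p = 0.00131). Day 7 lay above days 2-3 in every clone.

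Id2 rose in A3, in Cast WT and in the pooled fit of D5 and G6. It went from 1.75 to 4.32 RPM to 2.62 to 18.1 RPM (median 4.93) in Cast WT (log2 fold change 1.37, SE 0.47, edgeR adjusted p = 0.0290), and from 1.24 to 1.83 RPM to 2.15, 2.88, 3.15 and 6.84 RPM in A3 (log2 fold change 1.41, SE 0.39, edgeR adjusted p = 0.0228). The Cast WT call was lost in 3 of 11 refits that left out a replicate, with replicate 1 of day 2 or of day 3 (1.25 and 1.28, edgeR adjusted p = 0.0700 and 0.0631) or replicate 2 of day 7 left out (0.75, edgeR adjusted p = 0.0501), and the A3 call in 4 of 8, each time without a replicate of days 2-3. In D5 it reached 4.64, 4.08, 6.65 and 12.0 RPM and in G6 5.20, 2.33, 16.4 and 7.34 RPM (log2 fold change 1.32, SE 0.31, edgeR adjusted p = 0.00175). The groups did not overlap in A3, and in Cast WT, D5 and G6 they did. Id2 of Dom WT was at 2.54, 1.32, 3.38 and 2.43 RPM on days 5-7 against 1.42 to 2.04 RPM before. Id4 passed only in the pooled fit of D5 and G6, where it was at 2.10, 0.920, 2.57 and 4.33 RPM and at 1.52, 0.573, 3.43 and 2.54 RPM (log2 fold change 1.25, SE 0.34, edgeR adjusted p = 0.00503). With G6 fitted by itself neither Id2 nor Id4 passed, and with D5 by itself both did. In Cast WT it went from 0.589 to 1.49 RPM to 0.684 to 4.64 RPM (log2 fold change 1.15, SE 0.49, edgeR adjusted p = 0.0695). In Dom WT and A3 it stayed between 0.457 and 1.51 RPM on all days from 2 to 7.

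Smad6 rose in 3 of the 4 fits and Smad7 in none by edgeR. Smad6 went from 4.66 to 8.12 RPM to 7.03 to 20.6 RPM (median 13.9) in Cast WT (log2 fold change 1.40, SE 0.27, edgeR adjusted p = 0.00132). In A3 it was at 9.64, 17.9, 11.2 and 52.0 RPM on days 5-7 against 4.95 to 7.26 RPM (log2 fold change 2.17, SE 0.54, edgeR adjusted p = 0.0163), and replicate 2 of day 7 was far above the others. Without it the log2 fold change was 1.28 (edgeR adjusted p = 0.00335). In D5 the values were 8.66, 7.66, 12.0 and 15.8 RPM and in G6 20.1, 15.6, 34.3 and 14.7 RPM, each clone above all its days 2-3 replicates (log2 fold change 1.39, SE 0.23, edgeR adjusted p = 7.80e-05). In Dom WT Smad6 was at 9.81, 6.64, 18.6 and 12.5 RPM against 5.60 to 11.3 RPM. Smad7 stayed between 26.2 and 67.0 RPM from day 2 to day 7 in the other 4 clones. Its small rise in Cast WT (log2 fold change 0.22) passed by DESeq2 (adjusted p = 0.0318) and in 2 of 11 edgeR refits, without replicate 2 of day 5 (0.26) or replicate 1 of day 7 (0.25), but not with all replicates in edgeR (adjusted p = 0.0621). In Dom WT it was at 50.7, 80.8, 42.2 and 80.4 RPM and then 33.8, 52.8, 28.9 and 49.1 RPM (log2 fold change -0.58, SE 0.26, edgeR adjusted p = 0.131).

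In Dom WT the replicate numbers paired the libraries, as replicate 2 carried the lower Cast share on chromosome 6. With the replicate as a block 2 of the 6 genes passed in Dom WT, Id3 upwards and Smad7 downwards. In the libraries of the lower share alone, and in those of the usual share alone, none passed (edgeR, 2 replicates against 2). Id3 had a log2 fold change of 1.44 (SE 0.40) in the former and 1.34 (SE 0.49) in the latter, and Smad7 of -0.58 (SE 0.15) and -0.59 (SE 0.19), so both values were nearly the same in each kind. Smad6 had 0.11 (SE 0.36) and 1.22 (SE 0.38). The call for Id3 in Dom WT was also lost in 6 of 8 refits that left out a replicate and in 1 fit over all replicates.

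**Figure D3:**
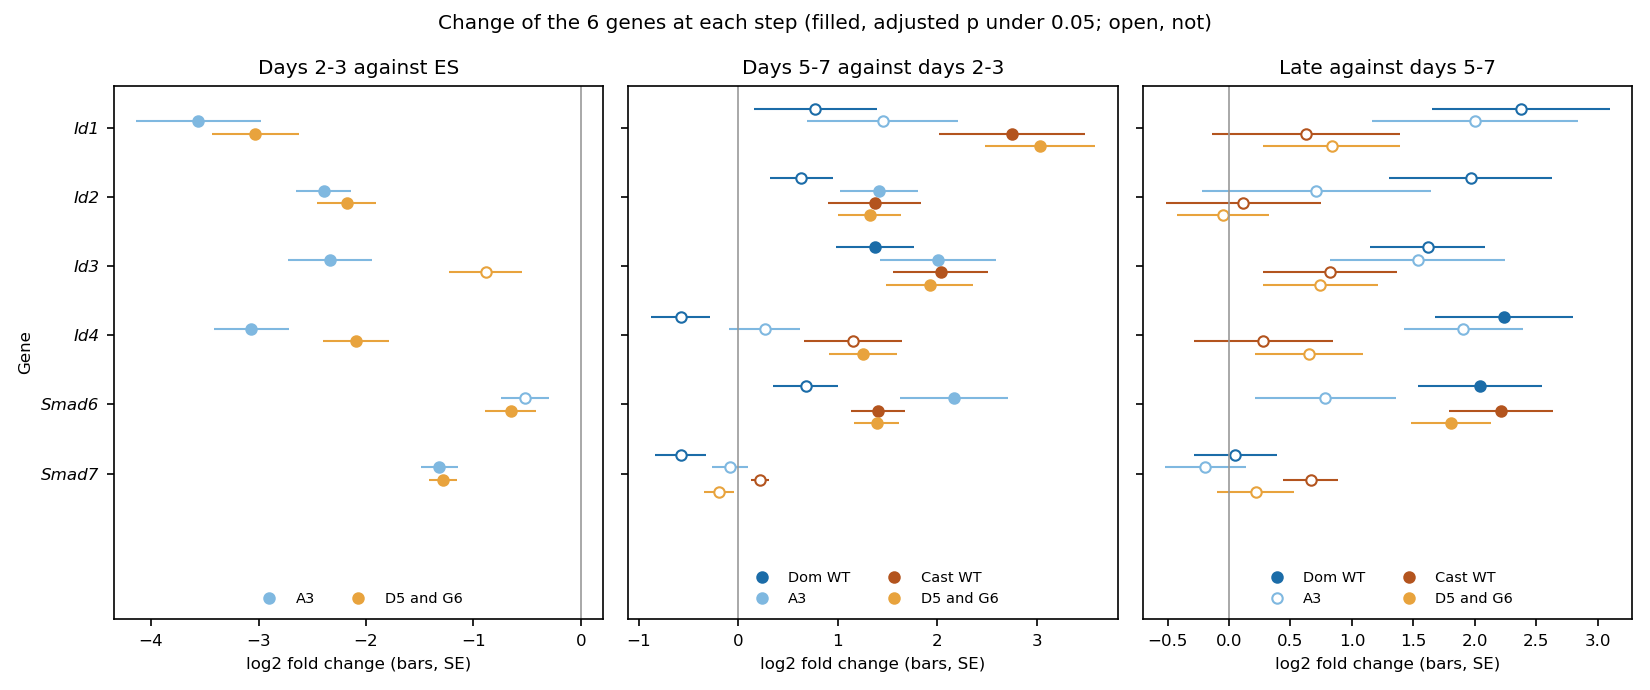
Log2 fold change of each gene at the 3 steps (bars, SE) by clone, filled where the adjusted p was under 0.05. The fall after ES cells runs from -3.56 (Id1) to -0.52 (Smad6) in A3, and Id3 is filled in all 4 fits of days 5-7 against days 2-3.

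Day 5 and day 7 differed, and the split was made after the data were seen. Against days 2-3, day 5 alone gave calls for Id3 and Smad6 in Cast WT, for Id1 and Smad6 in D5 and G6, for Smad6 in A3 and for no gene in Dom WT. Day 7 alone gave 5 in Cast WT and 5 in D5 and G6 (the 4 Id genes and Smad6), and Id2, Id3 and Smad6 in both A3 and Dom WT. In D5 and G6 the log2 fold change of Id1 was 1.48 (SE 0.42) on day 5 and 3.78 (SE 0.36) on day 7, that of Id3 0.60 (SE 0.31) and 2.62 (SE 0.32), and that of Smad6 1.10 (SE 0.23) and 1.66 (SE 0.24). Smad6 was thus past the threshold on day 5 in 3 of 4 fits, and most Id calls rested on day 7. The difference between the days was not itself tested.

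The late comparison asked about BMP output in cells kept as precursors. Against days 5-7, 2 of the 6 genes rose in Dom WT (8.47% of all genes rose and 3.64% fell), 1 in Cast WT (14.7% and 9.59%), 0 in A3 (3.83% and 1.10%) and 1 in D5 and G6 (28.2% and 26.8%). None fell. In A3, 2 of the 6 had an unadjusted p under 0.05 in edgeR, and DESeq2 called 1. The median log2 fold change of the 6 was 2.01, 0.64, 1.16 and 0.70 in this order, beside -0.02, 0.03, 0.04 and -0.00282 over all genes. Late replicates of a clone are single libraries of different days, so their spread includes change over time, and the fibroblast list moved with the late days in every clone.

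Smad6 was the gene that rose late in most fits. In Dom WT it was at 19.2, 21.5, 66.5 and 63.1 RPM on days 15, 21, 35 and 52, above the 18.6 RPM that was its highest value on days 5-7 (log2 fold change 2.05, SE 0.51, edgeR adjusted p = 0.0376). In Cast WT it was at 104, 45.2 and 21.3 RPM on days 15, 21 and 35, above the earlier 20.6 RPM (log2 fold change 2.21, SE 0.42, edgeR adjusted p = 0.00515). With 1 library a day, Dom WT was higher on days 35 and 52 than on days 15 and 21, and Cast WT was highest on day 15, without which its log2 fold change was 1.52 (edgeR adjusted p = 0.0132). In D5 it was at 20.8, 77.2 and 38.8 RPM and in G6 at 67.1, 35.6 and 27.1 RPM (log2 fold change 1.81, SE 0.33, edgeR adjusted p = 0.000571). In A3 it was at 20.8, 29.7, 39.5 and 37.2 RPM, which overlapped with days 5-7 through the 52.0 RPM of replicate 2 on day 7. Without that replicate Smad6 passed in A3 as well (log2 fold change 1.66, edgeR adjusted p = 0.0423).

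The late Id genes spread widely between days. Id4 of Dom WT was at 7.40, 1.43, 1.74 and 2.73 RPM on days 15 to 52, against 0.764 to 0.908 RPM on days 5-7 (log2 fold change 2.24, SE 0.56, edgeR adjusted p = 0.0387), and of A3 at 2.94, 1.39, 1.13 and 2.52 RPM against 0.457 to 1.05 RPM (log2 fold change 1.91, SE 0.49, edgeR adjusted p = 0.0576). The late values of Id4 lay above days 5-7 in both clones of iXist-ChrX-Dom. In that line Id1 was at 4.64, 1.28, 3.76 and 6.12 RPM in Dom WT (log2 fold change 2.38, SE 0.72, edgeR adjusted p = 0.0626) and at 7.90, 1.32, 1.24 and 3.10 RPM in A3 (log2 fold change 2.00, SE 0.84, edgeR adjusted p = 0.146). Id2 was at 13.6, 1.36, 5.05 and 12.1 RPM in Dom WT (log2 fold change 1.97, SE 0.66, edgeR adjusted p = 0.0795) and at 14.6, 0.677, 0.979 and 3.802 RPM in A3. Id3 was at 13.2, 4.30, 9.33 and 18.8 RPM and at 15.2, 3.74, 4.74 and 12.9 RPM (in Dom WT, log2 fold change 1.62, SE 0.47, edgeR adjusted p = 0.0556). Id1, Id2 and Id3 were higher on days 15 and 52 than on days 21 and 35 in both genotypes of this line.

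In iXist-ChrX-Cast no Id gene passed late. Id1 was at 5.41, 2.34 and 2.75 RPM in Cast WT, 2.65, 7.51 and 6.62 RPM in D5 and 3.19, 5.69 and 3.27 RPM in G6. Id3 was at 12.1, 6.80 and 11.4 RPM, 7.95, 13.6 and 14.2 RPM, and 6.69, 10.9 and 11.4 RPM in the same order. Id2 was at 12.1, 2.38 and 4.78 RPM in Cast WT, 4.55, 9.24 and 4.81 RPM in D5 and 6.73, 5.86 and 3.87 RPM in G6. The clones thus overlapped with one another on these genes. Taken against day 7 alone, the late log2 fold change in D5 and G6 was 0.08 (SE 0.39) for Id1, -0.59 (SE 0.31) for Id2, 0.04 (SE 0.33) for Id3 and 0.12 (SE 0.43) for Id4, none of which passed. Against day 5 alone it was 2.39 (SE 0.49, edgeR adjusted p = 0.00585) for Id1 and 2.08 (SE 0.30, edgeR adjusted p = 0.00157) for Id3. All late Id2 values of G6 lay below its day 7 values of 16.4 and 7.34 RPM. Id4 was at 2.26, 1.37 and 2.20 RPM in Cast WT, 1.03, 5.09 and 3.24 RPM in D5 and 1.55, 3.12 and 3.09 RPM in G6.

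Smad7 passed late in none of the 4 edgeR fits. In Cast WT it was at 56.9, 65.7 and 30.6 RPM late, around the 32.6 to 41.1 RPM of days 5-7 (log2 fold change 0.66, SE 0.22, edgeR adjusted p = 0.0540). It passed there by DESeq2 (adjusted p = 0.0432) and, in edgeR, without day 35 (0.92, adjusted p = 0.00594). Its late level was 18.8, 33.01, 59.8 and 36.5 RPM in Dom WT, 19.3, 24.1, 48.1 and 13.6 RPM in A3, 26.6, 67.8 and 25.7 RPM in D5 and 56.8, 20.8 and 11.2 RPM in G6. Every late value was below the 90.2 RPM of the lowest ES replicate.

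The late calls in Dom WT depended on which libraries were used. With the libraries of the lower Cast share on chromosome 6 none of the 6 genes passed, Smad6 having a log2 fold change of 2.59 (SE 0.63) and Id4 of 1.33 (SE 0.49). The usual share left day 15 as the only late library, so the kind of library and the day cannot be told apart there, and its values against replicate 1 of days 5 and 7 (0.72 for Smad6 and 3.55 for Id4) are given with no call. Without day 15, Id4 had a log2 fold change of 1.44 (edgeR adjusted p = 0.0491). Day 21 was the low library for Id1, Id2, Id3 and Id4. Without it 5 genes passed, and without day 35, day 52, either day 5 replicate or replicate 2 of day 7 none did. In Cast WT, Id3 passed beside Smad6 when the high replicate 2 of day 7 was left out, as did Smad7 when day 35 was.

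KO and WT cells were compared at days 2-7 and late, with day as a term. None of the 6 genes passed in any of the 4 comparisons by edgeR, nor by DESeq2. At days 2-7, 0.866% of all genes differed between A3 and Dom WT and 0.432% between D5 and G6 and Cast WT. The latter fit pooled D5 and G6 as 1 KO group without clone as a term. Fitted alone at days 2-7, D5 had 523 genes higher and 744 lower than Cast WT of 14816 tested. G6 alone had 173 higher and 97 lower of 14718, and 0 of the 6 passed with either clone alone. Late, the share was 0% in each line, with 1540 and 1811 genes at an unadjusted p under 0.05. DESeq2 called 113 genes higher and 81 lower in A3 late, and 293 higher and 129 lower in D5 and G6 late. In the 4 edgeR comparisons Id4 of A3 at days 2-7 alone of the 6 genes had an unadjusted p under 0.05.

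Id4 was at 0.457 to 1.05 RPM in 8 A3 replicates of days 2-7 and at 0.763 to 1.51 RPM in 8 of Dom WT (log2 fold change -0.67, SE 0.23, edgeR adjusted p = 0.194), and its A3 level was the lower of the pair at each of the 4 late times, at 2.94, 1.39, 1.13 and 2.52 RPM where Dom WT had 7.40, 1.43, 1.74 and 2.73 RPM. The ranges overlapped on days 2-7. The other 5 genes lay between -0.47 and 0.34 in that fit (log2 fold change, SE 0.18 to 0.43). The late values in A3 ran from -1.07 (Id2) to -0.10 with SE of 0.21 to 0.44 and a lowest adjusted p of 0.462. In D5 and G6 the values ran from 0.06 to 0.25 at days 2-7 (SE 0.10 to 0.29, lowest adjusted p 0.811) and from -0.54 (Smad7) to 0.44 late (SE 0.26 to 0.48, lowest adjusted p 0.577, all edgeR). Smad7 of G6 was below Cast WT at each of the 3 late times, at 56.8, 20.8 and 11.2 RPM where Cast WT had 56.9, 65.7 and 30.6 RPM, and D5 was below it at 2 of them. Both KO clones were compared with the same WT libraries. With SE of this size the fits do not show that levels were equal. Against the 4 Dom WT libraries of days 2-7 with the lower Cast share on chromosome 6, Smad7 of A3 was at a log2 fold change of -0.68 (SE 0.15, edgeR adjusted p = 0.0591), and against those of the usual share at 0.04 (SE 0.14). Id3 was at -0.07 (SE 0.28) and -0.85 (SE 0.35), and Id4 at -0.63 (SE 0.29) and -0.74 (SE 0.28). None of the 6 passed against either kind, and Id4 alone of these 3 had a like value against both. Late, against the Dom WT libraries of the lower share, none passed either (Id2 at -1.53, SE 0.36, edgeR adjusted p = 0.577), and the usual share, with 1 late library, left nothing to estimate the spread from.

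**Figure D4:**
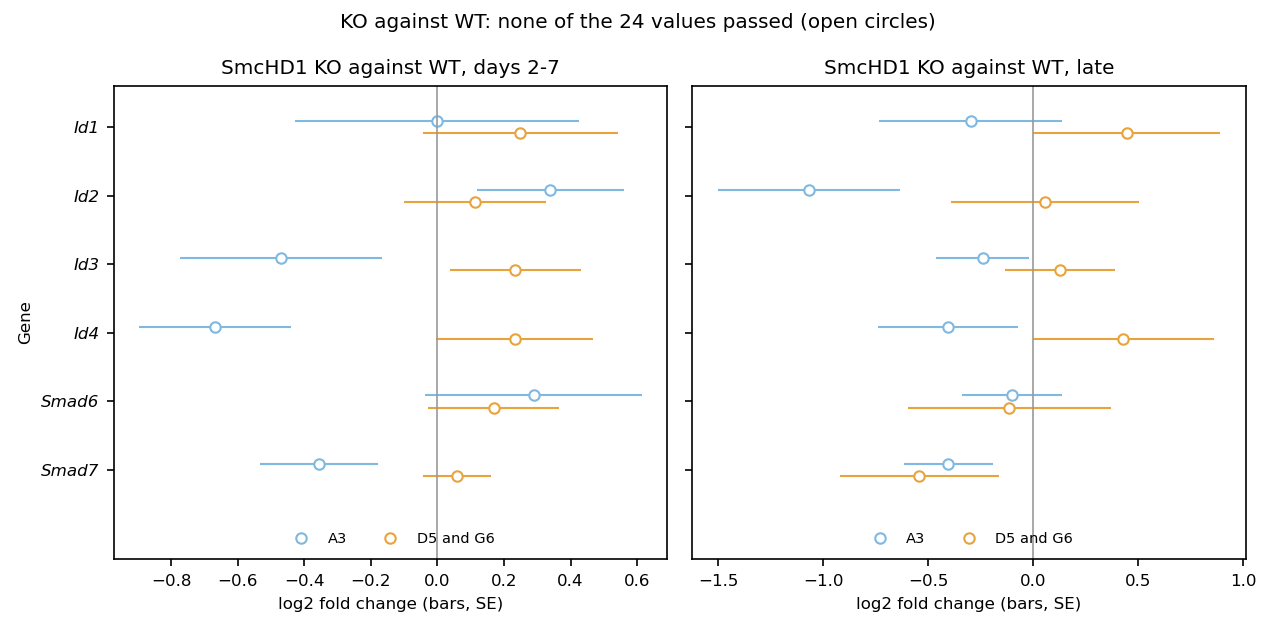
Log2 fold change of KO against WT (bars, SE) at days 2-7 and late, by line. None of the 24 values passed, and they run from -0.67 to 0.34 at days 2-7 and from -1.07 to 0.44 late.

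Whether the KO effect changed with time was tested as an interaction. None of the 6 genes passed in iXist-ChrX-Dom (0.00631% of all genes did) or in iXist-ChrX-Cast (2.97%), by edgeR or DESeq2, and 1 in each had an unadjusted p under 0.05. These were Id2 in iXist-ChrX-Dom, where the effect was lower late by -1.40 (log2, SE 0.44, edgeR adjusted p = 0.305), and Smad7 in iXist-ChrX-Cast, by -0.60 (SE 0.28, edgeR adjusted p = 0.254). The late change of the WT cells was compared between the lines in the same way. None of the 6 and 0% of all genes passed (687 genes at an unadjusted p under 0.05, while DESeq2 called 3 genes higher and 1 lower), with Id4 at -1.98 (SE 0.85, edgeR adjusted p = 0.939) the 1 gene of the 6 at an unadjusted p under 0.05. The lines were thus not shown to differ in their late change. With the Dom WT libraries of either share on chromosome 6, no gene of the 6 passed in these tests. Id2 of iXist-ChrX-Dom had an interaction of -2.13 (log2, SE 0.47) with the lower share and 0.02 (SE 0.58) with the usual one, and Id4 between the WT lines -1.07 (SE 0.89) and -3.31 (SE 1.06), with day 15 again the only late Dom WT library of the usual share.

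The rest of the pathway was read from a list of 58 genes. Between ES cells and days 2-3, 7 of the 54 tested rose and 18 fell in A3 (13% and 33.3%, beside 16% and 19% of all genes), and 6 rose and 15 fell in D5 and G6 (11.1% and 27.8%, beside 18.3% and 19.2%). Among 9 ligands, Bmp4, Bmp5 and Bmp8a fell in A3 and Bmp4, Bmp8a, Bmp8b and Gdf6 in D5 and G6, with Bmp7 the 1 ligand that rose in each. Bmp5, a ligand of the receptors that signal through SMAD1 and SMAD5, had the largest fall in A3, from 2.78 and 8.88 RPM to 0.0354 to 0.320 RPM (log2 fold change -4.96, SE 0.62, edgeR adjusted p = 0.000538), and Bmp7 rose there from 4.78 and 5.35 RPM to 7.00 to 16.01 RPM (log2 fold change 1.24, SE 0.30, edgeR adjusted p = 0.0111). Without replicate 1 of the ES cells Bmp5 was at -3.98, and without either ES replicate Bmp7 did not pass (1.28 and 1.23, edgeR adjusted p = 0.0854 and 0.0751). In D5 and G6, Lefty2, an inhibitor of Nodal, fell furthest (log2 fold change -2.86, SE 0.21, edgeR adjusted p = 2.13e-06), and Bmp7 rose (log2 fold change 1.29, SE 0.29, edgeR adjusted p = 0.00438), though not without the G6 ES replicate (1.00, edgeR adjusted p = 0.0513). Of the transducing Smads, Smad9 fell and Smad1 rose in both fits. Of the other BMP targets, Gata2 and Gata3 fell in both and Atoh8 in D5 and G6, and of the E proteins that ID proteins bind, Tcf3 and Tcf12 rose in both. Bmp8a and Bmp8b share their strand and part of their length with Oxct2a and Oxct2b, so their counts are uncertain.

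From days 2-3 to days 5-7 more of the list rose than fell. The counts were 17 and 3 of 50 tested in Dom WT (34% and 6%, beside 12.1% and 8.99% of all genes), 29 and 6 of 53 in Cast WT (54.7% and 11.3%, beside 23.5% and 22.9%), 29 and 3 of 52 in A3 (55.8% and 5.77%, beside 16.3% and 13.4%) and 32 and 6 of 54 in D5 and G6 (59.3% and 11.1%, beside 27.9% and 28.6%). In the Dom WT libraries of the lower Cast share on chromosome 6 alone 1 rose and 0 fell, and in those of the usual share 2 rose and 1 fell, with 2 replicates against 2. Bmp2 and Bmp7 rose in all 4 fits, as did the receptors Bmpr1a, Bmpr2 and Acvr2a and the targets Atoh8 and Gata3. Eng, a co-receptor of the TGF-beta family, fell in all 4. Bmp5 had the largest rise in 3 of them, to 0.676 to 19.6 RPM in Cast WT (log2 fold change 4.43, SE 0.96, edgeR adjusted p = 0.00277), with 6.44 (SE 1.58, edgeR adjusted p = 0.0152) in A3, where it was 3.48 without replicate 2 of day 7, and 5.22 (SE 0.81, edgeR adjusted p = 4.68e-05) in D5 and G6. In Dom WT Tgfb2, a TGF-beta ligand, rose most, from 2.59 to 3.88 RPM to 19.3 to 45.5 RPM (log2 fold change 3.20, SE 0.30, edgeR adjusted p = 0.000734), and Eng fell by 1.35 on the log2 scale (SE 0.38, edgeR adjusted p = 0.0339). Tgfb2 passed with either kind of library (2.99 with the lower share and 3.38 with the usual one), and Eng with neither (-1.30 and -1.44), nor in 6 of 8 refits that left out a replicate (highest edgeR adjusted p = 0.0852). The largest fall in the other 3 fits was Gdf3, a ligand of early embryos, at -1.81 (SE 0.31, edgeR adjusted p = 0.000668) in Cast WT, -2.52 (SE 0.38, edgeR adjusted p = 0.00207) in A3 and -2.17 (SE 0.34, edgeR adjusted p = 5.64e-05) in D5 and G6. The BMP antagonist Nog rose in Cast WT and in D5 and G6, and the pseudoreceptor gene Bambi rose in the same 2 fits.

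Late, 10 of 55 rose and 0 fell in Dom WT (18.2% and 0%, beside 8.47% and 3.64% of all genes), 24 rose and 6 fell of 56 in Cast WT (42.9% and 10.7%, beside 14.7% and 9.59%), 4 rose and 0 fell of 54 in A3 (7.41% and 0%, beside 3.83% and 1.10%) and 26 rose and 10 fell of 57 in D5 and G6 (45.6% and 17.5%, beside 28.2% and 26.8%). With the Dom WT libraries of the lower Cast share alone 1 rose and 0 fell. The receptor genes Acvr1 and Acvrl1, and Tgfb3 and Tgfbr2 of the TGF-beta branch, rose in all 4 fits. Bmp5 reached 35.1 to 145 RPM in Dom WT (log2 fold change 4.46, SE 1.17, edgeR adjusted p = 0.0428) and rose by a like amount in D5 and G6 (log2 fold change 4.37, SE 0.81, edgeR adjusted p = 0.000677). The Dom WT call for Bmp5 held in 2 of 8 refits that left out a replicate, with values of 4.06 to 6.70 (the highest without replicate 1 of day 7), and was lost with the lower share alone (7.45, SE 1.04, edgeR adjusted p = 0.0766). The largest late rise was Tgfb3 in Cast WT (log2 fold change 4.66, SE 0.61, edgeR adjusted p = 0.000858) and Acvrl1, a receptor best known from endothelium, in A3 (log2 fold change 3.94, SE 0.88, edgeR adjusted p = 0.0476). Tgfb3 was at 3.75 without day 35, and the call for Acvrl1 held in 3 of 8 refits, with values of 3.01 (without day 52) to 4.54 (without replicate 2 of day 7). Lefty2 fell furthest in Cast WT (log2 fold change -4.52, SE 0.68, edgeR adjusted p = 0.00172) and in D5 and G6 (log2 fold change -4.35, SE 1.00, edgeR adjusted p = 0.00260), where Nodal, Lefty1 and Tdgf1 fell too. Without day 15 Lefty2 was at -5.37 in Cast WT, and without day 15 of G6 at -5.58 in D5 and G6.

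Between genotypes at days 2-7, 2 of 52 listed genes passed in A3 (3.85%, beside 0.866% of all genes) and 1 of 54 in D5 and G6 (1.85%, beside 0.432%). In A3 against Dom WT at days 2-7 Tgfbr2, a TGF-beta receptor, was higher (log2 fold change 0.69, SE 0.15, edgeR adjusted p = 0.0427) and Lefty2 lower (log2 fold change -0.99, SE 0.20, edgeR adjusted p = 0.0359). The call for Tgfbr2 held in 4 of 16 refits that left out a replicate (0.60 to 0.76) and that for Lefty2 in 6 of 16 (-1.10 to -0.89). Against the Dom WT libraries of the lower Cast share Lefty2 alone of the pair passed (-1.16, and Tgfbr2 at 0.43), and against those of the usual share Tgfbr2 alone (1.01, and Lefty2 at -0.76). In D5 and G6 Eng was lower (log2 fold change -0.55, SE 0.12, edgeR adjusted p = 0.0288), a call that held in 21 of 27 refits (-0.63 to -0.51), and late no gene of the list passed in either line. The change of the KO effect with time passed for Acvr2b in iXist-ChrX-Cast (log2 -0.83, SE 0.20, edgeR adjusted p = 0.0174), and was lost without day 35 of Cast WT (-0.54, edgeR adjusted p = 0.404) or of G6 (-0.71, edgeR adjusted p = 0.0590).

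**Figure D5:**
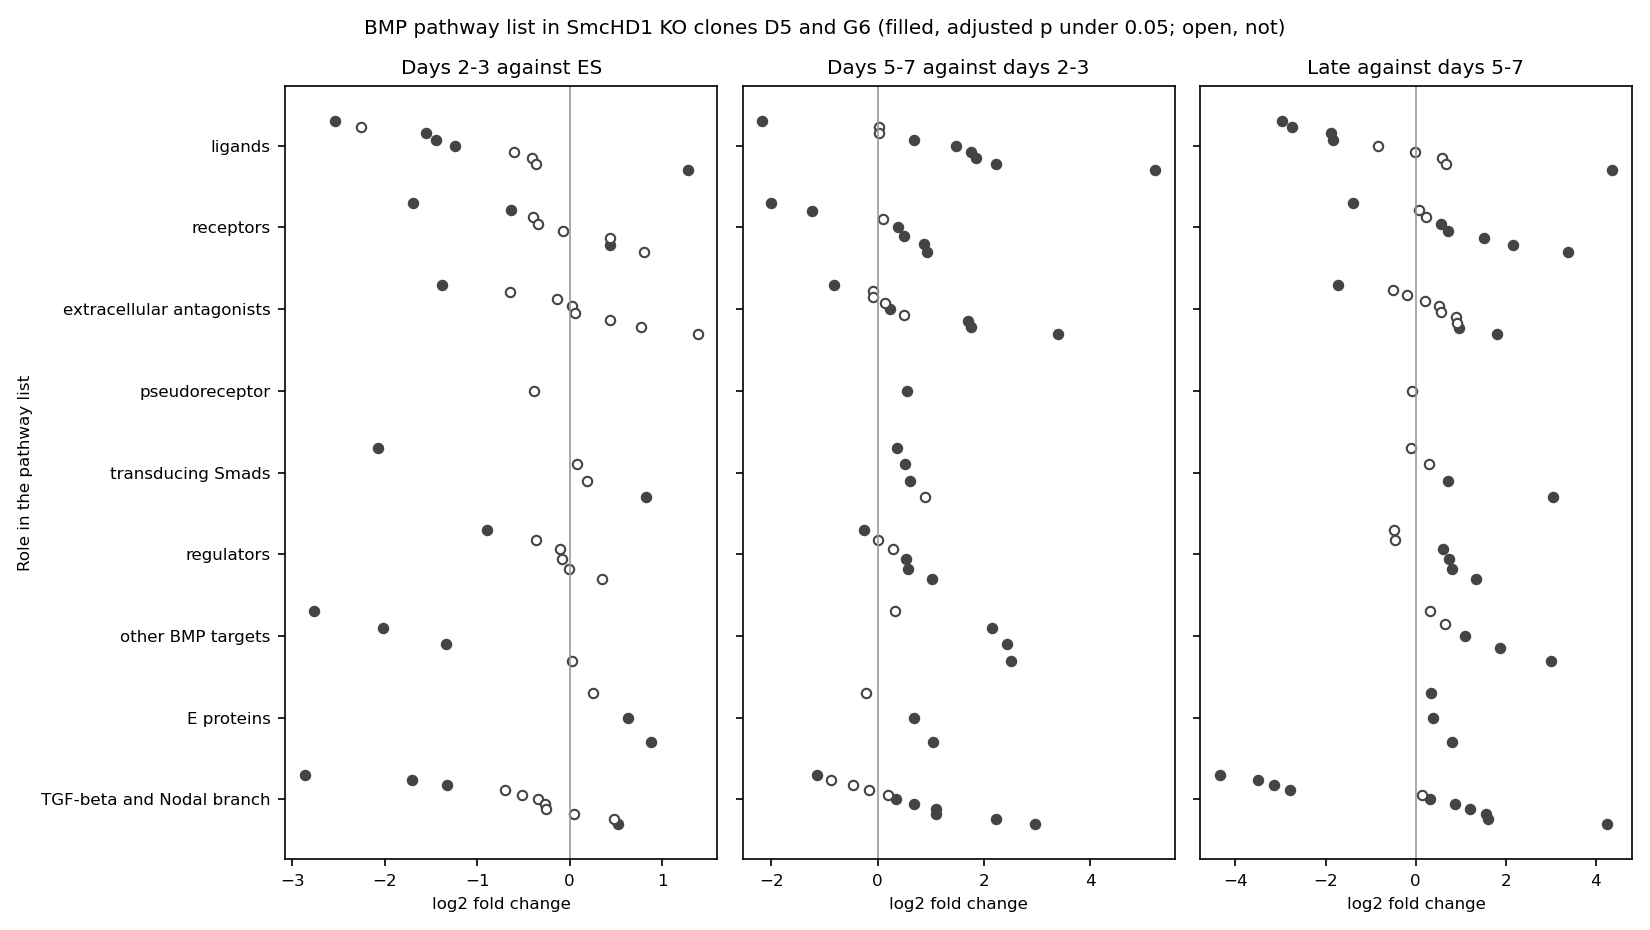
Log2 fold change of the pathway list by role in clones D5 and G6 at the 3 steps, each circle 1 gene, filled where the adjusted p was under 0.05. Of the genes tested, 6 rose and 15 fell at the first step, 32 rose and 6 fell at the next and 26 rose and 10 fell late.

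The genes were also compared over 40 clone-by-day means of log2(RPM + 1), which share lines, media and the course of differentiation, so the values describe these samples. Id1 went with Id3 (Pearson's r = 0.908), Id4 (0.834) and Id2 (0.787), and Smad6 with Id3 (0.769) and Id1 (0.690). Smad7 went with none of the other 5, with r between -0.344 and 0.0639. Among 18564 genes, the 3 most like Id1 were Id3, Zmym3 (0.875) and Pja1 (0.867), and those most like Id3 were Pja1 (0.917), Zmym3 (0.908) and Id1. Id1 was also the gene most like Id2, followed by Igsf11 (0.770) and Fos (0.760), and most like Id4, followed by Slitrk2 (0.779) and Tbc1d23 (0.764). Nearest to Smad6 were Wnt5a (0.934), Atoh8 (0.928), which is a BMP target on the list, and Hs3st3a1 (0.916). Nearest to Smad7 were Dusp27 (0.855), Popdc3 (0.818) and Ly75 (0.809). The neighbours of these Smad genes depended on the measure. By Spearman's correlation those of Smad6 were Atoh8 (0.948), Efcab8 (0.937) and Ubtd1 (0.930). Those of Smad7 were then Dusp27 (0.779), Serpina3i (0.777) and 1600010M07Rik (0.755). With the 18 clone-by-stage groups put in order of their mean, 15 to 17 of the 17 neighbouring pairs of each gene overlapped, so the order of single groups is not resolved.

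The hybrid genome let fragments be assigned to the Cast or the Dom allele. Over all replicates of a clone, Smad7 drew 47.8 to 49.1% of 6645 to 8267 allelic fragments from the Cast allele and Smad6 47.6 to 51.2% of 2867 to 4635. Over all stages both were close to even in each clone, though Smad6 on days 2-3 ran from 39.5% (D5) to 50.8% (A3). Over all stages again, Id1 drew 55.6 to 62.2% from Cast on 196 to 343 fragments, Id3 44.2 to 57.6% on 158 to 290 and Id4 47.8 to 62.9% on 88 to 128. Id2 was at 52.4% in Dom WT (Wilson 95% interval 48.2 to 56.6) and at 66.1% in D5 (62.7 to 69.4), and the genes of chromosome 12 together were at 61.5 to 67.5% in every replicate. By stage, Id2 in D5 was at 61.4% (52.7 to 69.4) in ES cells, 77.3% (69.4 to 83.7) on days 2-3, 69.8% (64.9 to 74.3) on days 5-7 and 52.0% (44.1 to 59.8) late. In Dom WT it was at 67.2% (55.3 to 77.2) on days 2-3 and 49.2% (44.2 to 54.2) late. The share of Id2 from the Cast allele was lower late than on days 2-3 in each of the 5 clones, a difference that was not tested across replicates. On 13 to 43 fragments a stage, Id4 went from 13.6% (4.75 to 33.3) in ES cells to 73.8% (58.9 to 84.7) late in A3. In D5 it went from 25% (11.2 to 46.9) to 81.0% (60.0 to 92.3), and in G6 from 38.5% (17.7 to 64.5) to 81.4% (67.4 to 90.3). In WT cells, which lack ES libraries, Id4 was at 31.6% on days 2-3 and 60% late in Dom WT, and at 48% and 42.1% in Cast WT. Id1 on days 2-3 ran from 60% (G6, 35.7 to 80.2) to 100% (Cast WT, 77.2 to 100), on 12 to 20 fragments. Late it ran from 50.7% (Dom WT, 42.7 to 58.6) to 59.2% (A3, 50.4 to 67.4). These changes of Id4 and Id1 were not tested either. These intervals cover counting error only.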

How the data were processed

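Chromatin-associated RNA of each sample was sequenced as stranded libraries. The authors removed rRNA reads with Bowtie2 2.3.2, aligned the rest with STAR 2.4.2a to an N-masked mm10 genome, split fragments by allele, and counted them over whole transcripts with featureCounts 1.5.2, and the deposited files hold these raw counts per gene, total and per allele. Repeat runs of a sample were summed, which turned 72 libraries into 65 replicates. No 2 libraries were identical, and the files held 0 blank or total rows. RPM was computed per 1000000 fragments counted in genes.

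The 17 comparisons were fitted with edgeR 4.0.16 in R 4.3.3 (quasi-likelihood test, TMM scaling, filterByExpr, robust dispersion, Benjamini-Hochberg adjusted p under 0.05 over all genes tested). Clone was a term in the stage fits of D5 and G6, and day in the fits of KO against WT, where D5 and G6 were pooled without a clone term. The scripts were first tested on simulated data. Alternatives were DESeq2 1.42.0, other scaling and filters, 1 fit over all replicates, single clones, a replicate block and leaving out each replicate. Days 5 and 7 apart, the crossed block and the split of Dom WT by chromosome 6 (a median gene under or over 25% Cast, over genes with at least 20 allelic fragments) were chosen after seeing the data. The members and lists were chosen with earlier results of these data known. Named genes are the 6, the pathway gene with the largest rise and fall past the threshold in each comparison, with other list genes that passed named by role after their values were seen, and the 3 genes most like each member.

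Replicate numbers were checked by the correlation of deviations from group means. In Dom WT, all 8 same-numbered pairs of days 2-3 and days 5-7 correlated above 0.1 (0.13 to 0.53), so the numbers paired those libraries, and in no other comparison did every pair. Over the same days most pairs did in D5 and G6 (14 of 16), Cast WT (8 of 10) and A3 (6 of 8). The main fits left the pairing out.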

Additional observations from a re-analysis of the deposited data

Results flagged for a closer look

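In 10 of 72 groups of 4 to 6 replicates the highest replicate stood apart from its group (its gap to the next value, as a share of the group's range, passed Dixon's 95% critical value). No chance rate is set beside this count, since the groups pool days and the genes of a library are not independent. Replicate 2 of day 7 in Cast WT was the highest of the 6 replicates of days 5-7 for all 4 Id genes. Id1 was at 8.49 RPM there with the next replicate at 2.64 RPM (gap 0.736 of the range), Id2 at 18.1 against 5.72 RPM (0.800), Id3 at 16.5 against 7.04 RPM (0.660) and Id4 at 4.64 against 2.12 RPM (0.637).

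The other 6 were all on day 2. In Dom WT, Id1 was at 0.872 RPM in replicate 2 against 0.475 RPM (0.844), Id2 at 2.04 RPM in replicate 1 against 1.47 RPM (0.924) and Id3 at 2.99 RPM in replicate 1 against 1.38 RPM (0.872). Id3 of G6 was at 3.57 RPM in replicate 2 against 1.54 RPM (0.920). Smad6 was at 7.26 RPM in replicate 1 of A3 against 5.24 RPM (0.875) and at 8.12 RPM in replicate 1 of Cast WT against 5.64 RPM (0.715).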

How the results depend on the processing

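Counts of the 6 genes called kept within 1.5 times in 119 of the other settings and 218 of the refits that left out a replicate, and moved in 22 and 18. A count of 0 that stayed 0 was taken as kept. The comparisons of KO with WT gave 0 in every refit that left out a replicate, so the 218 say less about the comparisons with calls. No value called changed its sign, and 1 that was not called did (Id2, change of the KO effect with time in iXist-ChrX-Dom, 0.0169 with the Dom WT libraries of the usual Cast share). For days 5-7 in Dom WT (1 gene), the replicate block gave 2, 1 fit over all replicates 0, day 5 alone 0, day 7 alone 3, and the libraries of the lower and of the usual Cast share 0 each. Day 5 alone gave 2 in Cast WT, 1 in A3 and 2 in D5 and G6, and G6 alone gave 3 (Id1, Id3 and Smad6). For late days in Dom WT (2 genes), DESeq2 and 1 fit over all replicates gave 5 each, and day 5 alone, day 7 alone and the lower Cast share 0 each. In Cast WT DESeq2 gave 2, day 5 alone 3 and day 7 alone 0, in A3 DESeq2 gave 1 and 1 fit over all replicates 3, and in D5 and G6 day 5 alone gave 3. The change of the KO effect with time in iXist-ChrX-Cast gave 1 (Smad7) with G6 alone. The cause was not tested, beyond the fewer samples of some settings.

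Leaving out each replicate gave 5 to 6 genes (A3) and 4 to 5 (D5 and G6) after ES cells, 0 to 1 (Dom WT), 3 to 5 (Cast WT), 1 to 3 (A3) and 5 to 5 (D5 and G6) on days 5-7, 0 to 5, 1 to 2, 0 to 1 and 1 to 1 late in the same order, and 0 to 0 in the other 7 comparisons. A3 on days 5-7 kept Smad6 alone without replicate 1 or 2 of day 2 or replicate 1 of day 3. Apart from Dom WT on days 5-7, the replicate block moved no count by over 1.5 times. Same-numbered A3 and Dom WT libraries correlated at -0.71 to -0.39, and the crossed pairing called 0 genes, as did the block. Depth limits Id1 most, at 2 to 20 fragments a replicate on days 2-3.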
